A study of Mus musculus with 6 samples.

Results

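Interferon-gamma is the cytokine by which activated T cells and natural killer cells alert the cells around them. It binds a receptor of the Ifngr1 and Ifngr2 chains, the kinases Jak1 and Jak2 are then activated, and the signal reaches target genes through a promoter element, the gamma-activated sequence (GAS). One early target is Irf1, a transcription factor that binds the interferon-stimulated response element (ISRE) and turns on further genes, while Socs1 is induced in the same wave and shuts the kinases down. Among the most abundant products in mouse cells are GTPases of the guanylate-binding protein (GBP) and immunity-related GTPase (IRG) families, which attack the vacuoles that hold intracellular pathogens and are widely used as a readout of interferon-gamma in a tissue.

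Expression of 9 such genes was examined, namely the GBP genes Gbp2, Gbp3 and Gbp7, the IRG genes Irgm1, Igtp and Iigp1, the regulators Irf1 and Socs1, and the receptor chain Ifngr1. They were chosen by symbol, through the Ensembl gene IDs, and each symbol matched 1 of the 54532 gene IDs measured. RNAseq profiles came from mammary tumors of NeuT/ATTAC mice, 3 samples from mice that received an antibody to PD-1 and 3 from mice that received control IgG of the same isotype. Each dose was 100 μg, and dosing started at 8 weeks of age and was repeated 2 times a week. PD-1 is the inhibitory receptor of activated T cells, and the question was whether the antibody altered gene expression in the tumors. All mice of both groups carried the Erbb2 transgene of MMTV-NeuT, which the mouse mammary tumor virus promoter drives in mammary epithelium, on an FVB background into which FAT-ATTAC had been crossed from C57BL/6. FAT-ATTAC is a caspase fusion expressed in adipocytes, and in both groups AP20187, the drug that dimerizes it, was injected at 0.4 mg/kg from 6 weeks of age to ablate mammary fat and induce fibrosis. Tumors without AP20187 and tumors without antibody were not analysed here. The labels do not tie a sample to an animal, and the study's description of its RNAseq mentions pooling of RNA within groups, so p-values measure only the spread between the samples deposited.

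The values were FPKM, fragments scaled to exon length and library size, and the low values stepped in units worth 1 read pair, which gave 22009893 to 25596230 read pairs per sample. At this depth 3 read pairs on a 2-kb transcript corresponded to 0.0586 to 0.0682 FPKM. Differences are given as anti-PD-1 minus IgG on the log2(FPKM + 1) scale, which understates changes of genes near 1 FPKM, and were tested with limma over the 15069 genes with a mean of at least 0.5 FPKM. All 9 genes passed this filter, and the gene with the lowest level, Socs1, had 53 to 87 read pairs per sample. Whole profiles correlated between samples at r = 0.892 to 0.958, and IgG replicate 2 and IgG replicate 3 lay apart from the other samples on the first principal component (52.5 and 29.4, against -35.0 to -4.69). No gene reached an adjusted p of 0.05 (0 of 15069, 0.0%), and 1848 genes (12.3%) had an unadjusted limma p under 0.05. For this reason unadjusted p-values are given throughout and are named as such.

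The promoter windows of most of the 9 genes held GAS or ISRE letters, and these stretches are shown because they are the elements through which promoters are known to respond in this pathway. RefSeq promoter windows (GRCm38.p6, 250 bases before to 50 after a transcription start) were matched for 8 of the 9 genes. GAS was searched as TTCNNNGAA, which reads the same on both strands, and ISRE as GAAANNGAAA or its reverse complement TTTCNNTTTC. GAS letters were found in 3 of the 8 genes and ISRE letters in 6, against 9.55% and 3.99% of the 27025 genes with a window. Matches are a description of the letters and do not show that a factor binds. In the stretches below, written 5′ to 3′ on the strand of the gene, capitals mark the matches.
Gbp2, chr3:142620597-142620620, plus strand, 1 ISRE match: cttttagTTTCACTTTCactgtct
Gbp3, chr3:142559979-142560034, plus strand, 2 overlapping ISRE matches: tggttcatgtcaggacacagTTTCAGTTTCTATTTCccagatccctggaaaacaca
Gbp7, chr3:142530210-142530312, plus strand, 2 GAS matches and 1 ISRE match: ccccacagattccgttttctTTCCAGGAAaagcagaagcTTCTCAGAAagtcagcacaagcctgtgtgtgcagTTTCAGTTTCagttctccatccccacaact
Irf1, chr11:53769904-53769952, plus strand, 1 GAS match: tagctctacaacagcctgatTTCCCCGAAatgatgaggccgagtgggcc
Irgm1, chr11:48871428-48871457, minus strand, 2 overlapping ISRE matches: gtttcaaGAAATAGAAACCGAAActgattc
Igtp, chr11:58199491-58199551, plus strand, 1 GAS and 1 ISRE match: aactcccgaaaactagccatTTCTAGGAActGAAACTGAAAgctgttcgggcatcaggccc
Socs1, chr16:10785584-10785639, minus strand, 2 overlapping ISRE matches: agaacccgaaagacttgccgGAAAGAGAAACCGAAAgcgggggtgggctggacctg

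The Gbp7 and Igtp windows held both motifs, as did 0.454% of all 32851 windows. In Igtp the GAS match ended 37 bases and the ISRE match 25 bases before the start. In Irf1 the GAS match lay 90 to 82 bases before the start and no ISRE letters were found, and the Ifngr1 window held neither motif. All stretches lie upstream of the RefSeq start, but GENCODE M21 begins some exons earlier, so that all 30 bases of the Irgm1 stretch, 19 of the 24 of Gbp2 and 9 of the 56 of Gbp3 are exonic there. The first 2 were kept short for that reason. Of the other genes of the pathway with a window, ISRE letters were found in 0 of 8 receptor and signaling genes, 2 of 2 other GBP genes, 5 of 8 other IRG and related GTPase genes and 8 of 13 type I interferon-stimulated genes.

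Of the 9 response genes, 1 was lower in anti-PD-1 tumors at an unadjusted p under 0.05, Iigp1, and 0 were higher. Over all genes tested, 6.05% were lower and 6.22% higher at this threshold, so that 1 of 9 is not far from the background share. The point estimate was below 0 for 7 of the 9 genes and above 0 for 2, with a median of -0.18 against a median of 0.01 over all genes tested. This median moved with single samples and with the scale, from 0.00190 without IgG replicate 2 to -0.41 when anti-PD-1 replicate 2 was left out, with -0.28 without anti-PD-1 replicate 3, -0.34 with 0.1 added in place of 1 and -0.38 by voom on read pairs. IgG replicate 2 had the highest value of 6 of the 9 genes and anti-PD-1 replicate 1 the lowest of 7. By mean FPKM over the 6 samples the order was Iigp1 at 82.1, Igtp at 40.5, Gbp2 at 37.7, Gbp3 at 32.1, Irgm1 at 23.0, Ifngr1 at 22.1, Irf1 at 20.2, Gbp7 at 8.89 and Socs1 at 0.999. Gbp3 was above Irgm1, Irf1 above Gbp7, and Gbp7 above Socs1 in all 6 samples. The other neighbours in this order crossed in at least 1 sample, with Irgm1 above Ifngr1 in 3 of 6.

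**Figure D1:**
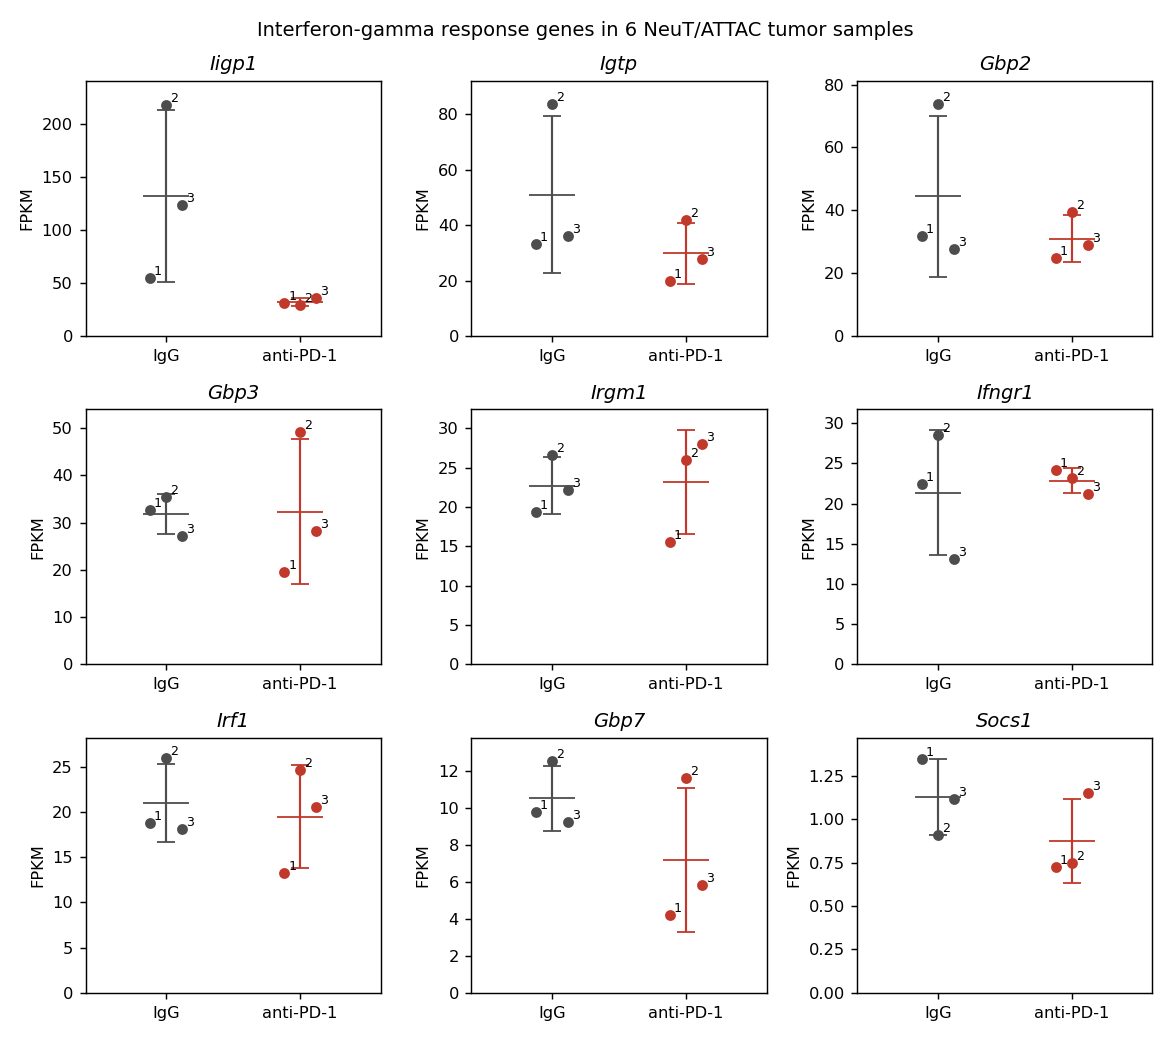
Expression of the 9 response genes in each tumor sample, in FPKM on axes that start at 0, with points numbered by replicate and bars for the group mean ± SD (n = 3). The Iigp1 values of the 3 anti-PD-1 samples, 28.9 to 35.9, all lie under the lowest IgG value of 55.1, while the groups overlap for the other genes.

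Ifngr1 (chr10:19591949-19610229, plus strand, GRCm38), the chain that binds the cytokine, was measured at 22.4, 28.5 and 13.1 FPKM in the IgG samples and at 24.2, 23.2 and 21.2 in the anti-PD-1 samples. The anti-PD-1 samples lay close together inside the range of the IgG samples. The means were 21.3 ± 7.76 and 22.9 ± 1.55 (SD, n = 3), a difference of 0.16 (95% interval -0.48 to 0.79, limma unadjusted p = 0.580), and it was -0.14 without IgG replicate 3 and 0.38 without IgG replicate 2. Ifngr2, the chain that carries Jak2, differed by -0.04 (limma unadjusted p = 0.821).

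Ifng, the cytokine itself, was near absent from these libraries. It had 1, 13 and 0 read pairs in IgG replicates 1, 2 and 3 and 0 in each of the 3 anti-PD-1 samples, which at this depth allows up to 3 read pairs per sample, and it was too low to be tested.

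Of the receptor and signaling genes, 9 of 10 were tested, and Jak1 and Pias1 were lower at an unadjusted p under 0.05 while 0 were higher. The shares over all genes tested were 6.05% lower and 6.22% higher. Jak1, the kinase bound to Ifngr1, was measured at 28.7, 46.9 and 43.4 FPKM in IgG tumors and at 21.1, 18.8 and 20.8 in anti-PD-1 tumors. Its groups did not overlap, and the difference was -0.91 ± 0.21 (SE, limma unadjusted p = 0.00319, adjusted p = 0.344, n = 3). Pias1, a SUMO ligase that restrains interferon signaling, fell from 9.03 ± 3.19 to 4.50 ± 0.458 FPKM, by 0.81 on the log2 scale (limma unadjusted p = 0.0180). That call ended without IgG replicate 2, IgG replicate 3 or anti-PD-1 replicate 2 (limma unadjusted p = 0.0537 to 0.0628). Jak1 and Pias1 lie on chromosomes 4 and 9, where the median difference of all tested genes was -0.40 over 926 genes and -0.36 over 798 genes. The part of these chromosome-wide shifts in the 2 differences was not tested. Jak2 differed by -0.06 (limma unadjusted p = 0.766), and the median of the list was -0.06, with -0.16 without IgG replicate 3 and 0.05 without IgG replicate 2.

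Irf1 (chr11:53770014-53778374, plus strand), the transcription factor with the GAS match printed above, was measured at 18.8, 25.96 and 18.1 FPKM in IgG tumors and at 13.3, 24.6 and 20.6 in anti-PD-1 tumors. Anti-PD-1 replicate 1 lay below the IgG range and the other two within it. The means were 20.97 ± 4.33 and 19.5 ± 5.73 (SD, n = 3), a difference of -0.12 (95% interval -0.72 to 0.48, limma unadjusted p = 0.641), and it ran from -0.30 when anti-PD-1 replicate 2 was left out to 0.12 when replicate 1 was. Its exons share 3.40% of their bases with the opposite-strand gene Gm17334, whose mean level was 0.509 FPKM.

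Socs1 (chr16:10782240-10785536, minus strand), the feedback inhibitor of the Jak kinases, was measured at 1.35, 0.910 and 1.12 FPKM in IgG tumors and at 0.724, 0.747 and 1.15 in anti-PD-1 tumors. Anti-PD-1 replicate 3 lay within the IgG range and the other two below it. The difference was -0.18 (95% interval -0.66 to 0.29, limma unadjusted p = 0.392). Its 53 to 87 read pairs per sample are the fewest of the 9 genes, and near 1 FPKM the added 1 shrinks both the difference and its interval, the difference being -0.34 with 0.1 added and -0.38 by voom on read pairs. Socs3, another inhibitor of cytokine receptors, differed by 0.68 with overlapping groups (limma unadjusted p = 0.135).

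The 3 GBP genes lie near each other on chromosome 3, and none of them reached an unadjusted p under 0.05. Gbp2 (chr3:142620602-142638008, plus strand) was measured at 31.8, 73.8 and 27.6 FPKM in IgG tumors and at 24.7, 39.5 and 28.8 in anti-PD-1 tumors. A single sample, IgG replicate 2, stood above all others. The difference was -0.39 (95% interval -1.28 to 0.49, limma unadjusted p = 0.330), and without IgG replicate 2 it was 0.03.

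Gbp3 (chr3:142560026-142573209) was measured at 32.8, 35.5 and 27.2 FPKM in IgG tumors and at 19.5, 49.3 and 28.2 in anti-PD-1 tumors. Both its lowest and its highest value were in anti-PD-1 tumors, and the difference was -0.07 (95% interval -0.82 to 0.68, limma unadjusted p = 0.833), from -0.41 when anti-PD-1 replicate 2 was left out to 0.23 when replicate 1 was. Gbp7 (chr3:142530342-142550149), the gene with 2 GAS matches, was measured at 9.81, 12.6 and 9.28 FPKM in IgG tumors and at 4.21, 11.6 and 5.82 in anti-PD-1 tumors.

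The 2 lower Gbp7 values lay below all IgG samples, and anti-PD-1 replicate 2 lay among them. The difference was -0.58 (95% interval -1.34 to 0.18, limma unadjusted p = 0.114). Single anti-PD-1 samples moved it most, to -0.30 without replicate 1 (limma unadjusted p = 0.352) and to -0.94 without replicate 2 (limma unadjusted p = 0.00493). The pseudogene Gm43802 covers 11.3% of the Gbp7 exon bases and was listed at 0 FPKM, so no reads were assigned to it. Whether reads in this stretch were counted for Gbp7 or dropped is not known. Among the other GBP genes, 7 of 8 were tested, all 7 had a difference below 0 with a median of -0.33, and 1, Gbp10, was lower at an unadjusted p under 0.05. The share called lower over all genes tested was 6.05%. Gbp10 was measured at 2.61 ± 1.05 FPKM in IgG tumors and 1.14 ± 0.431 in anti-PD-1 tumors (difference -0.73, limma unadjusted p = 0.0371), with overlapping groups. The call ended when any of IgG replicates 2 and 3 and anti-PD-1 replicates 1 and 2 was left out (limma unadjusted p = 0.0868 to 0.118). Gbp5, which assists inflammasome assembly, differed by -0.01. The median of these 7 genes was -0.05 when IgG replicate 2 was left out, -0.15 when anti-PD-1 replicate 1 was, and between -0.75 and -0.53 without each of the other samples. It was -0.64 with 0.1 added, -0.65 at a mean of at least 2 FPKM and -0.75 by voom.

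**Figure D2:**
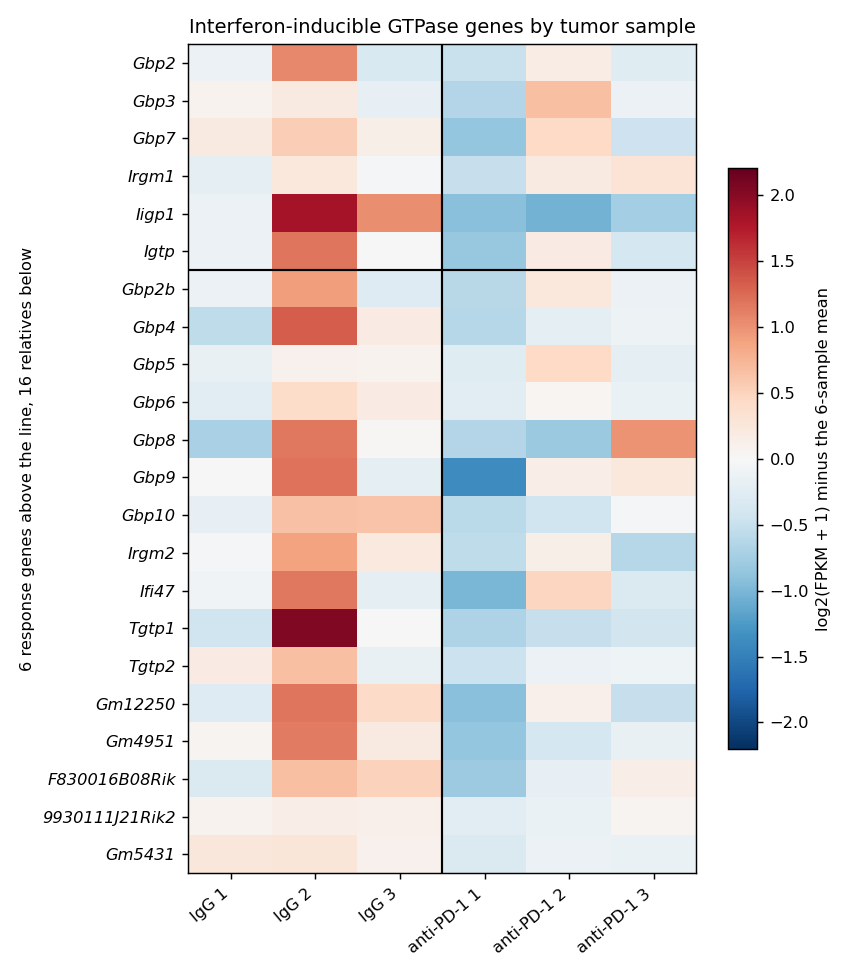
Heat map of 22 interferon-inducible GTPase genes (rows, 6 response genes above the line and 16 relatives below) in the 6 tumor samples (columns, IgG left and anti-PD-1 right of the line); colour gives log2(FPKM + 1) minus the mean of the gene over the 6 samples. IgG replicate 2 is the reddest column for most rows and anti-PD-1 replicate 1 is blue in all, while Iigp1 is blue in each anti-PD-1 sample.

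Irgm1 and Igtp belong to the regulatory IRG proteins, which sit on the membranes of the host cell and hold the effector IRG proteins inactive there. Irgm1 (chr11:48861968-48871683, minus strand) was measured at 19.3, 26.6 and 22.2 FPKM in IgG tumors and at 15.6, 26.03 and 28.0 in anti-PD-1 tumors. Anti-PD-1 replicate 1 lay below the IgG range, replicate 3 above it and replicate 2 within it. The difference was 0.000517 (95% interval -0.58 to 0.58, limma unadjusted p = 0.998), and its sign changed between settings, from -0.14 to 0.25 when single samples were left out.

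Igtp (chr11:58199556-58207591, plus strand) was measured at 33.4, 83.6 and 36.1 FPKM in IgG tumors and at 20.03, 41.8 and 27.8 in anti-PD-1 tumors. IgG replicate 2 was 4.17-fold above anti-PD-1 replicate 1, and anti-PD-1 replicate 2 lay above IgG replicates 1 and 3. The difference was -0.69 (95% interval -1.63 to 0.26, limma unadjusted p = 0.131), and it was -0.28 without IgG replicate 2 (limma unadjusted p = 0.399) and -0.44 without anti-PD-1 replicate 1. Igtp shares 8.01% of its exon bases with Irgm2 on the same strand, and 11.8% of its 50-base words occur in Irgm2 transcripts, so reads of the pair may have been divided between them.

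Iigp1, an effector IRG protein that coats and breaks the vacuoles of parasites, had the lowest anti-PD-1 level relative to IgG among the 9 genes. It was measured at 55.1, 217 and 124 FPKM in IgG tumors and at 31.4, 28.9 and 35.9 in anti-PD-1 tumors. All 3 anti-PD-1 samples lay below all 3 IgG samples and close together, whereas the IgG samples spread widely. The means were 132 ± 81.5 and 32.0 ± 3.55 FPKM (SD, n = 3), so the anti-PD-1 mean was 24.2% of the IgG mean. The difference was -1.81 ± 0.45 (SE, 95% interval -2.86 to -0.75, limma unadjusted p = 0.00475, adjusted p = 0.344). An exact two-sided permutation test of the 3 against 3 samples gave p = 0.1, the smallest that this design allows. Non-overlapping groups with lower anti-PD-1 values were found for 8.75% of all genes tested, and 0.305% of genes had a difference below that of Iigp1.

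The lower value of Iigp1 did not rest on 1 library. With single samples left out the difference was between -2.33 and -1.35, and under the 8 other settings between -1.92 and -1.81, each with an unadjusted p under 0.05, the highest being 0.0178. The adjusted p was 0.0598 without IgG replicate 1 and 0.766 without IgG replicate 2, which had the highest value. Counted as read pairs, the samples held 3816, 16411 and 9532 in IgG tumors and 2515, 2199 and 2675 in anti-PD-1 tumors. These counts use an exon length of 3121 bases, which gives whole numbers in all 6 samples, whereas the GENCODE M21 length of 5823 bases does not, so the level of Iigp1 beside the other genes depends on the length taken while its difference between groups does not.

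Within each sample Iigp1 was also set against the mean of the other 5 GTPase genes (Gbp2, Gbp3, Gbp7, Irgm1 and Igtp), a comparison chosen after the values were seen. Its log2 level exceeded that mean by 1.21, 2.499 and 2.41 in IgG tumors and by 1.04, -0.06 and 0.76 in anti-PD-1 tumors. The groups did not overlap and differed by -1.46 (exact permutation p = 0.1). Iigp1 had the largest difference of the 9 genes, so a lower value here was largely given in advance and is no separate support. The mean of the other 5 was 4.599, 5.27 and 4.55 against 3.97, 4.96 and 4.45, with overlapping groups and a difference of -0.35 (exact permutation p = 0.4). The other 5 leave out the further IRG and related GTPase genes, of which all 9 tested had a difference below 0. Of these, Tgtp1 differed by -1.06 and Gm12250 by -0.87, with overlapping groups (limma unadjusted p = 0.113 and 0.0660). Whether Iigp1 differs from these relatives was not tested.

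**Figure D3:**
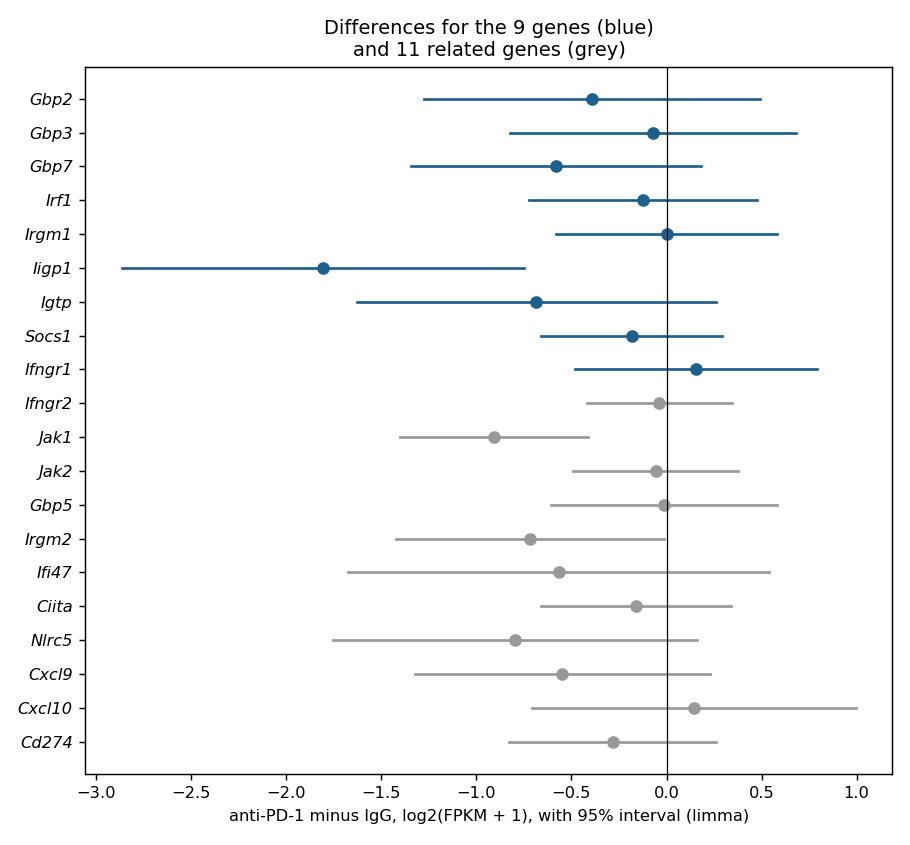
Differences of the 9 response genes (blue) and of the 11 tested pathway genes listed at the left (grey), anti-PD-1 minus IgG on the log2(FPKM + 1) scale, as points with limma 95% intervals (n = 3 per group). The intervals of Iigp1, Jak1 and Irgm2 lie below 0, and those of the other genes drawn include 0.

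Among the other IRG and related GTPase genes, 9 of 12 were tested, all 9 had a difference below 0 with a median of -0.57, and 2 were lower at an unadjusted p under 0.05. Of all genes tested, 6.05% were lower at this threshold and 8.75% had non-overlapping groups with lower anti-PD-1 values. Irgm2, the neighbour of Igtp, was measured at 13.6, 26.3 and 16.3 FPKM in IgG tumors and at 9.01, 15.1 and 8.55 in anti-PD-1 tumors (difference -0.72, limma unadjusted p = 0.0463). Its groups overlapped and the call ended without any 1 of IgG replicates 2 and 3 and anti-PD-1 replicates 1 and 3 (limma unadjusted p = 0.0679 to 0.140). Gm4951, an IRG gene within 500 kb of Iigp1, was measured at 6.27, 14.3 and 6.93 FPKM in IgG tumors and at 2.84, 4.32 and 5.21 in anti-PD-1 tumors, with groups that did not overlap (difference -0.93, limma unadjusted p = 0.0232). That call ended without IgG replicate 2 (limma unadjusted p = 0.0514) or anti-PD-1 replicate 1 (limma unadjusted p = 0.0783). 9930111J21Rik2 and Gm5431 also had groups that did not overlap, at differences of -0.22 and -0.40 (limma unadjusted p = 0.303 and 0.0662).

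The median of the 9 genes was -0.34 without anti-PD-1 replicate 1, -0.38 without IgG replicate 2, -0.86 without IgG replicate 1, and -0.94 when anti-PD-1 replicate 2 was left out. It was also -0.86 by voom and -0.87 at a mean of at least 2 FPKM. Ifi47, an IRG gene of chromosome 11, was measured at 19.2, 46.5 and 17.4 FPKM against 9.66, 28.6 and 16.1, with a difference of -0.57 (limma unadjusted p = 0.267). In the 500 kb on either side of Iigp1 (chr18:60376027-60392634, plus strand), 14 other genes were tested. Of these, 12 had a difference below 0 and 2 above. Apart from Gm4951 they had overlapping groups and differences between -0.56, for the IRG relative F830016B08Rik, and 0.25. The median over chromosome 18 was 0.01.

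Of 30 other interferon-gamma targets, 27 were tested, and 3 were lower and 0 higher at an unadjusted p under 0.05, with 17 differences below and 10 above 0 and a median of -0.15. That median was -0.06 both without anti-PD-1 replicate 1 and without IgG replicate 2, and -0.25 when anti-PD-1 replicate 2 was left out. The 3 were the MHC class I heavy chains H2-K1 and H2-D1 and Parp14, and the groups of each did not overlap. Over all genes tested, 6.05% were lower at this threshold and 8.75% had non-overlapping groups with lower anti-PD-1 values. Thus 3 of 27 is not far from either share. H2-K1 was measured at 326, 826 and 485 FPKM in IgG tumors and at 225, 318 and 314 in anti-PD-1 tumors (difference -0.84, limma unadjusted p = 0.0480). H2-D1 was measured at 938 ± 298 and 523 ± 43.6 FPKM (difference -0.79, limma unadjusted p = 0.0271). The calls of both ended when any of 5 single samples was left out, with p up to 0.1496 for H2-K1 and 0.0913 for H2-D1, and H2-K1, H2-D1 and related class I genes are near-identical over parts of their length.

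Parp14 was measured at 11.5 ± 1.15 and 7.35 ± 2.42 FPKM (difference -0.62, limma unadjusted p = 0.0268), and its call ended without IgG replicate 2, anti-PD-1 replicate 1 or anti-PD-1 replicate 3 (limma unadjusted p up to 0.0909). Of the chemokines that draw T cells, neither passed this threshold, with Cxcl9 at 1.90 ± 0.757 against 1.03 ± 0.793 FPKM and Cxcl10 at 1.16 ± 0.354 against 1.57 ± 1.33. Cd274, which encodes the PD-1 ligand PD-L1, differed by -0.28 (limma unadjusted p = 0.259). Nlrc5 and Ciita, the transactivators of MHC class I and class II, differed by -0.80 and -0.16 (limma unadjusted p = 0.0906 and 0.471).

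Type I interferons act through other receptors but share the ISRE, and 18 genes they induce were all tested. Of these, 17 had a difference below 0 and 1 above, with a median of -0.35, and 3 were lower at an unadjusted p under 0.05. That threshold called 6.05% of all genes tested lower. The median was -0.17 without anti-PD-1 replicate 3, -0.20 without anti-PD-1 replicate 1, -0.52 without IgG replicate 3, and -0.69 when anti-PD-1 replicate 2 was left out. Ifit2 was measured at 9.26 ± 3.21 and 4.83 ± 0.535 FPKM with groups that did not overlap (difference -0.77, limma unadjusted p = 0.0171), while Cmpk2 and Ddx58 differed by -0.91 and -0.78 with overlapping groups (limma unadjusted p = 0.0273 and 0.0266). The Ifit2 call ended without anti-PD-1 replicate 1 (limma unadjusted p = 0.0520), and those of Cmpk2 and Ddx58 without IgG replicate 2, anti-PD-1 replicate 1 or anti-PD-1 replicate 3, with IgG replicate 3 also for Ddx58 (limma unadjusted p up to 0.0886). Ddx58 lies on chromosome 4, with the median of -0.40 given above. These lists share the 6 samples with each other, so their medians are not independent of one another.

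**Figure D4:**
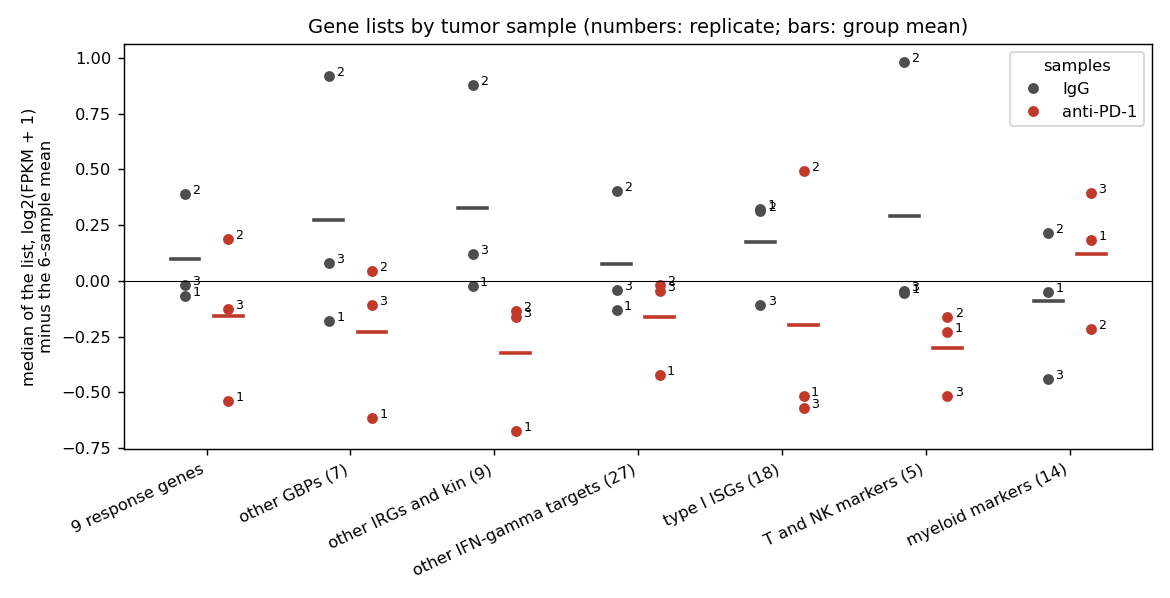
Median over the tested genes of each list, with the number of genes in brackets, of log2(FPKM + 1) minus the mean of the gene over the 6 samples; points are samples numbered by replicate and bars group means. IgG replicate 2 is the highest point of the 9 response genes, the other GBP, the other IRG and the T and NK lists. The groups overlap for the 9 response genes and do not for the other IRG list and the T and NK list. Some T and NK markers passed the filter on the mean of all 6 samples only through their IgG values, so the separation of that list is partly set by the filter.

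Markers of the cells that make interferon-gamma were scarce. Of 21 T and NK cell markers 5 passed the filter, and 9 had at least 1 sample at 0 read pairs. The median difference of the 5 was -0.38, and with no filter on low FPKM the list median was -0.11. Gzmb and Nkg7, at means of 0.374 and 0.411 FPKM in anti-PD-1 tumors, were among those that passed only through their IgG values. The median of the 5 is therefore partly set by the filter. Over all 21, most of them near the limit of detection, 15 differences were below 0 and 6 above. Klrb1c, a receptor of NK cells, was among the 6, with 3, 5 and 0 read pairs in IgG tumors and 38, 9 and 5 in anti-PD-1 tumors. Their summed level was 5.99 to 19.6 FPKM in IgG tumors, with IgG replicate 2 the highest, and 4.77 to 6.41 in anti-PD-1 tumors. Cd3e had 3, 30 and 25 read pairs in IgG tumors and 7, 0 and 1 in anti-PD-1 tumors, and Cd8a had 9, 69 and 20 against 9, 12 and 15. Among the 6 with a difference above 0, Cd8b1 had 2, 15 and 4 read pairs against 8, 13 and 5. Cd2, also among the 6, had 2, 9 and 14 against 7, 21 and 11. Prf1, another of the 6, had 0, 0 and 3 against 3, 4 and 6. Cd3e lies on chromosome 9, whose median of -0.36 is given above. Gzmb, the granzyme of cytotoxic cells, was lower, at 50, 168 and 81 read pairs in IgG tumors and 22, 0 and 18 in anti-PD-1 tumors (difference -1.45, limma unadjusted p = 0.00411, with -2.94 when 0.1 was added and -3.96 by voom), and Nkg7, a granule protein of the same cells, fell from 1.27 ± 0.359 to 0.411 ± 0.140 FPKM (limma unadjusted p = 0.0147, and 0.0518 without IgG replicate 2 or 0.0505 without anti-PD-1 replicate 3). Gzmb, Nkg7 and Iigp1 had groups that did not overlap, and the part of T and NK cell content in the Iigp1 difference was not tested. In bulk tumor RNA fewer cells of a type and less RNA per cell cannot be told apart.

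Of 14 macrophage and myeloid markers, all were tested, 13 had a difference above 0 with a median of 0.31 (0.10 without IgG replicate 3), and Cd68, a lysosomal protein of macrophages, was higher at an unadjusted p under 0.05. That threshold called 6.22% of all genes tested higher. Cd68 was measured at 18.1, 15.1 and 13.7 FPKM in IgG tumors and at 22.1, 30.5 and 29.1 in anti-PD-1 tumors, with groups that did not overlap, as for 9.3% of all genes in this direction (difference 0.76, limma unadjusted p = 0.00438). The summed level of the list overlapped, at 445 to 970 FPKM in IgG tumors and 652 to 966 in anti-PD-1 tumors. Cd68 was the only marker of this list with groups that did not overlap. Macrophages also respond to interferon-gamma, and the part of macrophage content in the Iigp1 difference was not tested.

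The genes most like the 9 response genes over the 6 samples were found by the correlation of their log2 level with the mean z-score of the 9, among 7929 genes with a mean of at least 5 FPKM. That mean was 0.07, 1.03 and -0.19 in IgG tumors and -1.10, 0.31 and -0.12 in anti-PD-1 tumors, so it was set mainly by IgG replicate 2 at the top and anti-PD-1 replicate 1 at the bottom. The 5 most alike were Arhgap12, Nkap, Nr3c1, Ifi47 and Ppil4, at Pearson r of 0.983, 0.983, 0.980, 0.979 and 0.974 and Spearman rho of 1 for 4 of them and 0.943 for Ifi47. They were picked as the highest of all, so no p is given, and without the 2 samples farthest from the median r was 0.848 to 0.952 over 4 samples. Ifi47, an IRG gene, was the only one of the 5 in the lists of pathway genes.

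**Figure D5:**
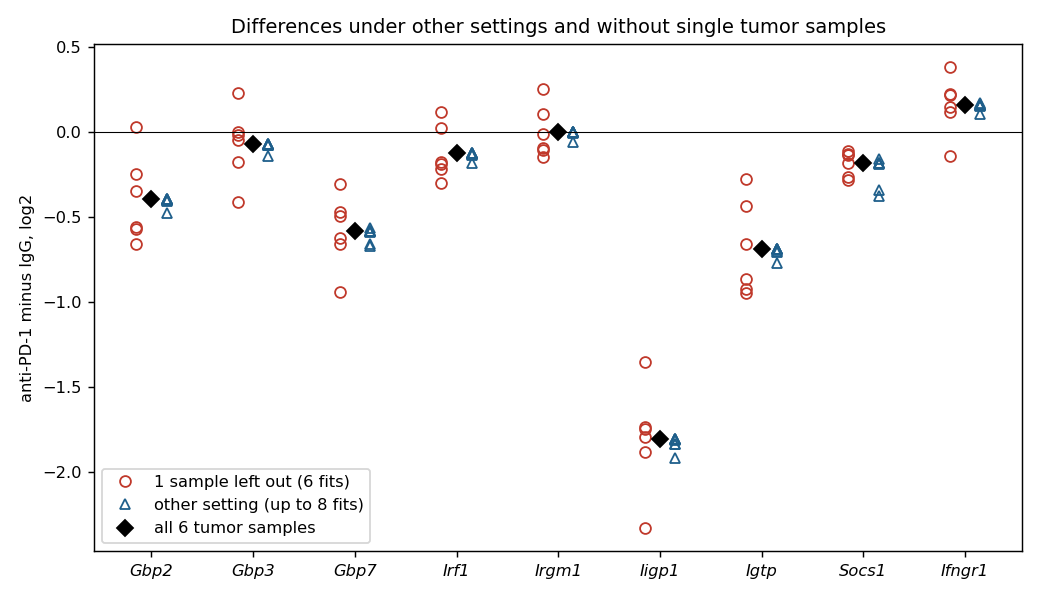
Differences of the 9 response genes, anti-PD-1 minus IgG on the log2 scale, with all 6 samples (diamonds), with 1 sample left out (circles) and under other settings (triangles). Iigp1 stays below -1.3 in every fit, whereas Gbp2, Gbp3, Irf1, Irgm1 and Ifngr1 have values on both sides of 0.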

How the data were processed

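Total RNA was taken from tumors of NeuT/ATTAC mice, and the 6 samples were grouped by the treatment in their labels (3 IgG, 3 anti-PD-1). The authors trimmed paired-end reads with cutadapt 3.5 and, per their notes, used Bowtie2 2.4.1 and RSEM 1.3.1 on mm10, with FastQC 0.11.9 and DESeq2 1.36.0 also named. The values deposited by the authors are FPKM per Ensembl gene, 1 column per sample.

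FPKM times the merged exon length of GENCODE M21 gave whole reads (tolerance 0.1) for 97.0% to 97.3% of values above 0, and the reads were used for depth and an alternative only. RSEM divides by effective lengths and would not usually give whole reads, so how reads shared by overlapping genes were assigned is not settled by the sources used here. Symbols came from GENCODE M21 (54409 of 54532 IDs matched). Scaling factors were medians of gene-wise ratios to the geometric mean, and log2 of the scaled FPKM plus 1 was compared with limma 3.58.1 (R 4.3.3, trended empirical Bayes, no covariates, Benjamini-Hochberg over 15069 genes with a mean of at least 0.5 FPKM). The script was tested on simulated data. Single values were compared by exact two-sided permutation tests, which cannot go below p = 0.1 with 3 against 3. Floors of 3 read pairs cover counting error only.

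The 9 genes and all gene lists were chosen with earlier results of these data known. Genes named were the 9, a set of pathway genes named regardless of outcome (Ifng, Ifngr2, Jak1, Jak2, Irgm2, Ifi47, Gbp5, Ciita, Nlrc5, Cxcl9, Cxcl10 and Cd274, with 1 more gene not reported here), up to 4 further genes per list with the smallest limma p among those with an unadjusted p under 0.05 or groups that did not overlap, and the 5 genes most correlated with the 9. Socs3, Cd3e, Cd8a, Cd8b1, Cd2, Prf1, Klrb1c, Pdcd1, Tgtp1, Gm12250 and F830016B08Rik were named after their values were seen.

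Alternatives were another added value, other filters on low values, other scalings, eBayes without a trend, voom on recovered reads, a replicate block and leaving out each sample. Promoter windows were RefSeq's (GRCm38.p6).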

Additional observations from a re-analysis of the deposited data

How the results depend on the processing

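Iigp1 was lower in anti-PD-1 tumors at an unadjusted p under 0.05 in all 14 alternatives. Leaving out single samples gave 957 to 2687 genes at an unadjusted p under 0.05, 0 to 12 at an adjusted p under 0.05, and 1 to 2 of the 9 response genes at an unadjusted p under 0.05. The 957 came without IgG replicate 2, 1156 without anti-PD-1 replicate 3, and the 12 without IgG replicate 1. The direction changed for Gbp2 (-0.66 to 0.03 over the samples left out), Gbp3 (-0.41 to 0.23), Irf1 (-0.30 to 0.12), Ifngr1 (-0.14 to 0.38) and Irgm1 (-0.14 to 0.25). Gbp2 was at 0.0281, Gbp3 at 0.00190 and Irf1 at 0.02 without IgG replicate 2. Irgm1 was also at -0.000953 with 0.1 added, -0.00427 with FPKM as deposited, -0.0560 with quantile normalization and -0.00133 with voom. voom on recovered reads called 1 gene at an adjusted p under 0.05. The T and NK cell list median of -0.38 was -0.86 with 0.1 added, -1.35 with voom, -0.11 with no filter on low FPKM and -0.57 to -0.18 with single samples left out, lowest without anti-PD-1 replicate 2 and highest without anti-PD-1 replicate 3. With no filter on low FPKM the calls of Irgm2, Gbp10, H2-K1, H2-D1, Krt19 and Esrp1 ended (limma unadjusted p = 0.0507 to 0.0882), as did those of Irgm2, Krt19 and Esrp1 by eBayes without the trend (limma unadjusted p = 0.0502 to 0.0537) and that of Krt19 with quantile normalization (limma unadjusted p = 0.0503) and voom (limma unadjusted p = 0.0694). Differences of genes near 1 FPKM grew with 0.1 added and by voom, from -0.73 to -1.10 and -1.18 for Gbp10 and from -0.68 to -1.43 and -1.60 for Nkg7. Other list medians that moved by over 1.5 times were myeloid (0.20 with quantile normalization), other interferon-gamma targets (-0.09 at a mean of at least 2 FPKM), endothelial (-0.29 by voom), fibroblast (0.14 to 0.20) and B and plasma cell (-0.13 to 0.25). The mean FPKM minimum of 2 removed Socs1.

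Replicate numbers occur in both groups, but same-numbered samples did not deviate together (r = -0.16, 0.01 and 0.19), so they share only a number. A fit with the replicate number as a block called 3 of the 9 response genes, Iigp1, Gbp7 (limma unadjusted p = 0.0499) and Igtp (limma unadjusted p = 0.0136), and 1725 genes in all. The cause of these changes was not tested. Depth limits what can be said of genes with few read pairs, such as Ifng and most T and NK cell markers.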

Other observations

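Markers of other cells in the tumors gave values that belong to no comparison above. Of 10 epithelial tumor markers, 7 had a difference above 0 and 3 below, with a median of 0.37. Erbb2, the oncogene of the model, was measured at 21.3 ± 1.47 FPKM in IgG tumors and 27.4 ± 3.44 in anti-PD-1 tumors, and Epcam, an epithelial adhesion protein, at 805 ± 106 and 1081 ± 83.6, each with groups that did not overlap and a limma unadjusted p of 0.0613 and 0.0906. Krt19, a keratin of luminal cells, was measured at 7.77, 77.3 and 7.39 FPKM in IgG tumors and at 4.08, 5.23 and 1.69 in anti-PD-1 tumors (limma unadjusted p = 0.0471), and IgG replicate 2 again had the highest value. The Krt19 difference of -2.03 was -0.97 without IgG replicate 2, and the call ended without any 1 of the anti-PD-1 samples (limma unadjusted p = 0.0606 to 0.134). Esrp1, a splicing factor of epithelium, was measured at 40.5 ± 11.6 and 25.8 ± 4.28 FPKM (limma unadjusted p = 0.0467), and lies on chromosome 4. Its call ended without IgG replicate 2 or 3 or anti-PD-1 replicate 1 or 3 (limma unadjusted p = 0.107 to 0.139).

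The medians of the endothelial and fibroblast lists, with 10 of 10 genes tested in each, were -0.19 and 0.10 (-0.33 to -0.08 and -0.06 to 0.34 with single samples left out), and neither list had a gene at an unadjusted p under 0.05. Of 8 B and plasma cell markers 3 were tested, with a median of 0.13 (-0.21 to 0.55 with single samples left out) and a summed level of 10.1 to 50.1 FPKM in IgG tumors and 14.7 to 29.0 in anti-PD-1 tumors. Of 8 adipocyte markers 1 was tested, and their summed level was 2.33 to 7.46 FPKM over the 6 samples, all of which came from mice given AP20187. Pdcd1, the gene of PD-1, had 3, 35 and 24 read pairs in IgG tumors and 16, 47 and 14 in anti-PD-1 tumors, and was too low to be tested.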
